A study of Macaca fascicularis with 2 samples.

Results

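Homing and quiescence genes of naive and memory T cells were followed in CD4+CD8+ double positive (DP) T cells, cells that carry both coreceptors and circulate in small numbers in macaque blood. The 9 genes were chosen by name, with earlier results of these data known, and 7 of them (*CCR7*, *S1PR1*, *LEF1*, *TCF7*, *BACH2*, *CD7* and *CD27*) were found among the 29324 gene rows. *KLF2* and *S1PR5* were not analysed here. The cells came from fresh peripheral blood of 1 untreated cynomolgus monkey, aged 10 years, with CD4 beads used first and CD8 beads second. One preparation gave 1 gene library and 1 tag library, so there were no replicates and no difference below has a test. Both libraries are held in 1 matrix with 8953 barcodes, none of them repeated. All intervals are 95% intervals for counting error and say nothing of variation between animals. Those of levels and ratios take the UMIs of a group as independent and also leave out the spread between its cells.

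After limits on gene number and mitochondrial RNA, 8830 cells with a median of 3145 UMIs (unique molecular identifiers, 1 for each captured RNA molecule) were left. Tags of at least 144 UMIs for CD4 and 419 UMIs for CD8 divided them into CD4hiCD8lo (5758 cells), CD4hiCD8hi (2543 cells), CD4loCD8hi (418 cells) and CD4loCD8lo (111 cells). *CD4* RNA, which the gates did not use, was at 106, 112 and 1.23 CPM (counts in 1000000 gene UMIs of the group) in the first 3 gates, so that the CD4loCD8hi cells, all labelled CD4+CD8+, nearly lacked it. The CD4loCD8lo gate went against the label, with the B cell list (10 genes) at 5139 CPM and the T cell list (8 of 10 genes found) at 691 CPM. An erythroid list (4 of 7 genes found) was at 10057 CPM there. This gate is left out of the comparisons between gates.

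Naive T cells circulate between blood and lymph nodes. *CCR7* encodes the chemokine receptor that brings them into lymph nodes, and *S1PR1* the sphingosine 1-phosphate receptor by which they leave again. *LEF1* and *TCF7* encode related HMG-box transcription factors that are high in naive T cells, and *BACH2* encodes a repressor of effector genes. *CD27* encodes a costimulatory receptor of the TNF receptor family that is usually lost late in differentiation, and *CD7* an immunoglobulin superfamily molecule of T cells and NK cells.

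The transcription factors and *CCR7* were highest in CD4hiCD8lo cells and lowest in CD4loCD8hi cells. *CCR7* was at 465 CPM (455 to 475) in CD4hiCD8lo, 267 CPM (258 to 277) in CD4hiCD8hi and 183 CPM (162 to 205) in CD4loCD8hi cells. *LEF1* took the same order at 373, 194 and 115 CPM, and *TCF7* at 504, 293 and 196 CPM. For these 3 genes no interval overlapped that of the next gate. *BACH2* was read from few molecules, with 488, 149 and 13 UMIs, and stood at 26.6, 13.2 and 7.97 CPM, where the last 2 intervals overlapped.

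*S1PR1* fell into 2 levels and the surface molecules did not take this order. *S1PR1* was at 81.6 CPM (77.5 to 85.8) in CD4hiCD8lo cells, and the 55.3 and 53.9 CPM of the CD8hi gates could not be told apart within their intervals. *CD27* was at 182 and 189 CPM in the CD4hi gates and at 302 CPM (276 to 330.1) in CD4loCD8hi cells. *CD7* was lowest in CD4hiCD8hi cells, at 429 CPM (417 to 441), against 598 CPM in CD4hiCD8lo and 760.0 CPM in CD4loCD8hi cells.

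**Figure D1:**
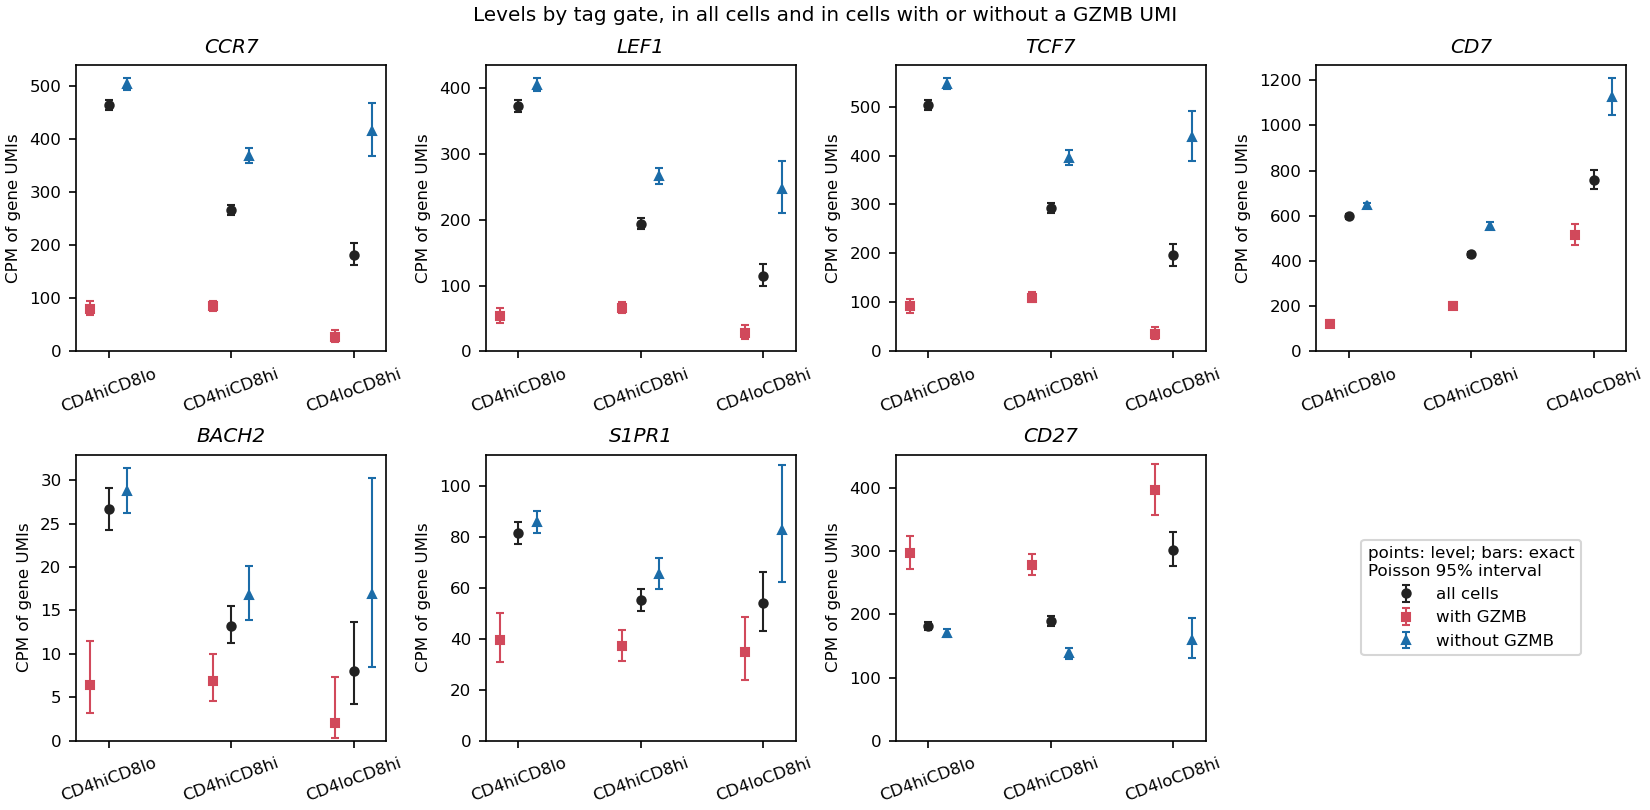
Level of each gene (CPM of gene UMIs) in the 3 tag gates for all cells, cells with a *GZMB* UMI and cells without one, with exact Poisson 95% intervals. In cells without *GZMB*, *CCR7* stays at 369.6 CPM or higher in each gate, while *CD27* is the only 1 of the 7 genes that lies higher with *GZMB* in every gate.

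Counted by a 2-fold difference, 4 of 7 genes (*CCR7*, *LEF1*, *TCF7* and *BACH2*) were higher in CD4hiCD8lo than in CD4loCD8hi cells, with log2 ratios from 1.35 to 1.74. Of all genes that reached 50 UMIs in the 2 groups together, 6.56% were 2-fold higher there and 5.21% lower, and 0 of 7 were lower. Against CD4hiCD8hi cells, only *BACH2*, with a log2 ratio of 1.01 (0.74 to 1.28), was 2-fold higher in CD4hiCD8lo cells (1 of 7) and 0 were lower, beside 1.19% and 4.51% of all genes. *BACH2* was under 2-fold in some other settings, at 0.96 with all barcodes, 0.99 as a mean over cells, 0.94 and 0.69 with tag thresholds times and divided by 1.5, and 0.69 among cells with none of the 5 marker genes described next. *LEF1* followed at 0.94 (0.87 to 1.01). Between CD4hiCD8hi and CD4loCD8hi cells 0 of 7 differed 2-fold either way, beside 4.23% of all genes higher and 1.7% lower in the first. There 4 of 4 NK cell genes and 4 of 5 B cell genes were 2-fold lower in the first, and 5 of 5 monocyte genes were 2-fold higher. All 16 effector genes of a second list, among them the cytotoxic granule genes *PRF1* and *NKG7*, were at least 2-fold lower in CD4hiCD8lo cells than in either other gate. Of 17 further naive genes counted, 0 were 2-fold higher or lower in CD4hiCD8lo than in CD4hiCD8hi cells, and 4 (*PECAM1*, *SATB1*, *CD28* and *BTG2*) were higher than in CD4loCD8hi cells. In CD4hiCD8lo against CD4loCD8hi cells, 3 of 3 NK cell genes and 3 of 5 cycling genes were 2-fold lower, and 5 of 5 monocyte genes higher. The NK cell list summed to 38.0 against 574 CPM there and the monocyte list to 81.1 against 6.13 CPM. Against CD4hiCD8hi cells, 2 of 3 NK cell genes, 4 of 6 cycling genes and 1 of 6 monocyte genes were lower. *CD22* alone of 8 B cell genes was 2-fold higher in both comparisons. Over CD4loCD8hi cells its levels were low, at 2.78 against 1.23 CPM, and the log2 ratio of 1.18 had an interval that included 0 (-0.74 to 4.27). The part of cycling genes was not tested.

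The make-up of the gates differed, and within cells with none of the 5 marker genes the gates lay closer in *CCR7*, *LEF1* and *TCF7* while CD4loCD8hi lay further from the other gates in *CD7*. These 6238 cells, 42 of them in the CD4loCD8lo gate, held no UMI of *GZMB*, *GZMK*, *FOXP3*, *CCR6* or *CXCR5*. Among them *CCR7* was at 524, 405 and 434 CPM, *TCF7* at 589, 447 and 457 CPM and *LEF1* at 431, 315 and 261 CPM, in gate order. *S1PR1* was at 89.8, 67.2 and 85.4 CPM and *CD27* at 170, 138 and 161 CPM, so neither kept its order over all cells. For both genes the ratios of either CD4hi gate over CD4loCD8hi had intervals that included 0. The log2 ratio of CD4hiCD8lo over CD4loCD8hi cells was 0.72 (0.49 to 0.96) for *LEF1* and 0.27 (0.09 to 0.46) for *CCR7*, in place of 1.69 and 1.35 over all cells. No gene but *CD7* was higher in the CD4loCD8hi cells of this kind with an interval free of 0. There *CD7* reached 1172 CPM (1086 to 1262), against 682 and 607 CPM, so that the log2 ratio of CD4hiCD8lo over CD4loCD8hi cells was -0.78 in place of -0.35, and 93.9% of these 148 cells held a *CD7* UMI.

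Over the CD8 tag range the levels differed below the gate as well as across it. The CD4hi cells were put into 10 bins of equal number by CD8 tag, with median tags from 142 to 1215.5 UMIs, with the medians of the first 7 below the CD8 threshold. *CCR7* went from 524 CPM in the lowest bin to 228 CPM in the highest and was at 402 and 328 CPM in the seventh bin, which contains the threshold, and the eighth, which lies above it. *LEF1* went from 431 to 156 CPM, *TCF7* from 562 to 274 CPM and *S1PR1* from 89.7 to 48.9 CPM. *CD27* stayed between 176 and 200.2 CPM in all bins, and *CD7* was at 387 CPM in the ninth bin and stood at 452 CPM in the tenth. The share of cells with a *GZMB* UMI went from 1.08% to 38.8% over the same bins, and the part of this share in the trends was not tested.

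**Figure D2:**
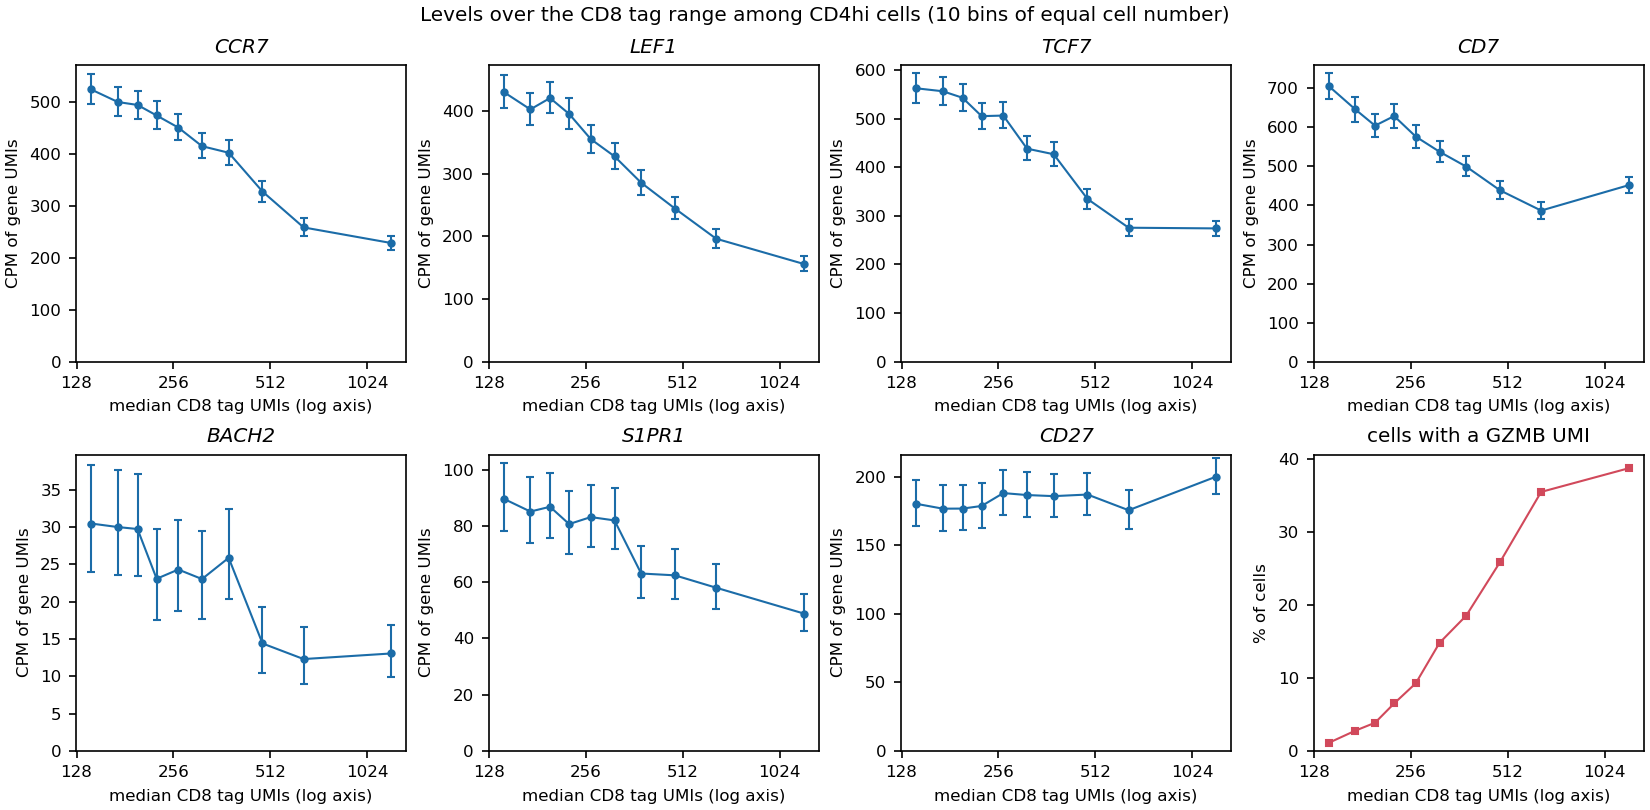
Level of each gene (CPM) in 10 bins of CD4hi cells by CD8 tag (median tag UMIs of the bin, log axis), with exact Poisson 95% intervals, and the percent of cells with a *GZMB* UMI in the last panel. *LEF1* goes from 431 CPM in the lowest to 156 CPM in the highest bin, *CD27* keeps between 176 and 200.2 CPM and the *GZMB* share ends at 38.8%.

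Cells with UMIs of *GZMB*, the cytotoxic protease granzyme B, were low in 6 of the 7 genes and high in *CD27*. In 1578 cells with and 7252 cells without a *GZMB* UMI, *CCR7* was at 75.7 and 456 CPM, which is a log2 ratio of -2.59 (-2.72 to -2.46). The transcription factors were lower too, *LEF1* at 57.3 and 355 CPM, *TCF7* at 94.1 and 492 CPM and *BACH2* at 6.04 and 24.7 CPM, the last with a log2 ratio of -2.03. *CD7* had a log2 ratio of -1.46 (-1.53 to -1.38) and *S1PR1* of -1.07 (-1.26 to -0.88). All 6 passed 2-fold, beside 8.15% of all genes that were lower in *GZMB* cells and 10.1% that were higher, which included 0 of the 7 genes. Within CD4hiCD8hi cells *S1PR1* was at -0.82 and did not pass, and *CCR7* was at -2.11 and *LEF1* at -2.00. Within CD4loCD8hi cells *CCR7* was at -3.92 (-4.55 to -3.35) and *TCF7* at -3.62 (-4.17 to -3.11). *CD7* was at -2.39 (-2.59 to -2.19) within CD4hiCD8lo cells. In *GZMB* cells the NK cell list was at 284 against 33.9 CPM, with all 4 of its genes counted 2-fold higher, as were 5 of 6 cycling genes and 3 of 6 monocyte genes, and 6 of 10 B cell genes were 2-fold lower. All 6 genes also passed 2-fold without cells with B or monocyte genes and without cells with an *FCER1G* UMI, and the part of cycling genes was not tested. The median gene was higher in *GZMB* cells by 0.13 log2.

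*CD27* went the other way. It was at 301 CPM (288 to 314) with and 159 CPM (154 to 164) without *GZMB*, a log2 ratio of 0.92 just under 2-fold, and the ratio was 0.80 within CD4hiCD8lo, 1.01 within CD4hiCD8hi and 1.31 within CD4loCD8hi cells. After thinning to 2200 UMIs a cell, 46.4% of *GZMB* cells held *CD27* without *CCR7* and 5.65% held *CCR7* without *CD27*. In cells with none of the 5 marker genes the same shares were 9.65% and 44.0%. Unthinned, 67.4% of *GZMB* cells and 38.9% of the marker-free cells held a *CD27* UMI.

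Most of the difference was reached by 2 *GZMB* UMIs. *CCR7* was at 456 CPM with 0 UMIs, 296 with 1, 97.3 with 2 to 4, 64.1 with 5 to 9 and 57.5 with 10 or more. *CD27* was at 159, 207, 295, 298 and 309 CPM in the same classes. The class with 1 UMI held 113 of the 1578 cells and lay between the others for both genes. *CD7* did not level off, at 119 CPM with 5 to 9 and 229 CPM with 10 or more *GZMB* UMIs.

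**Figure D3:**
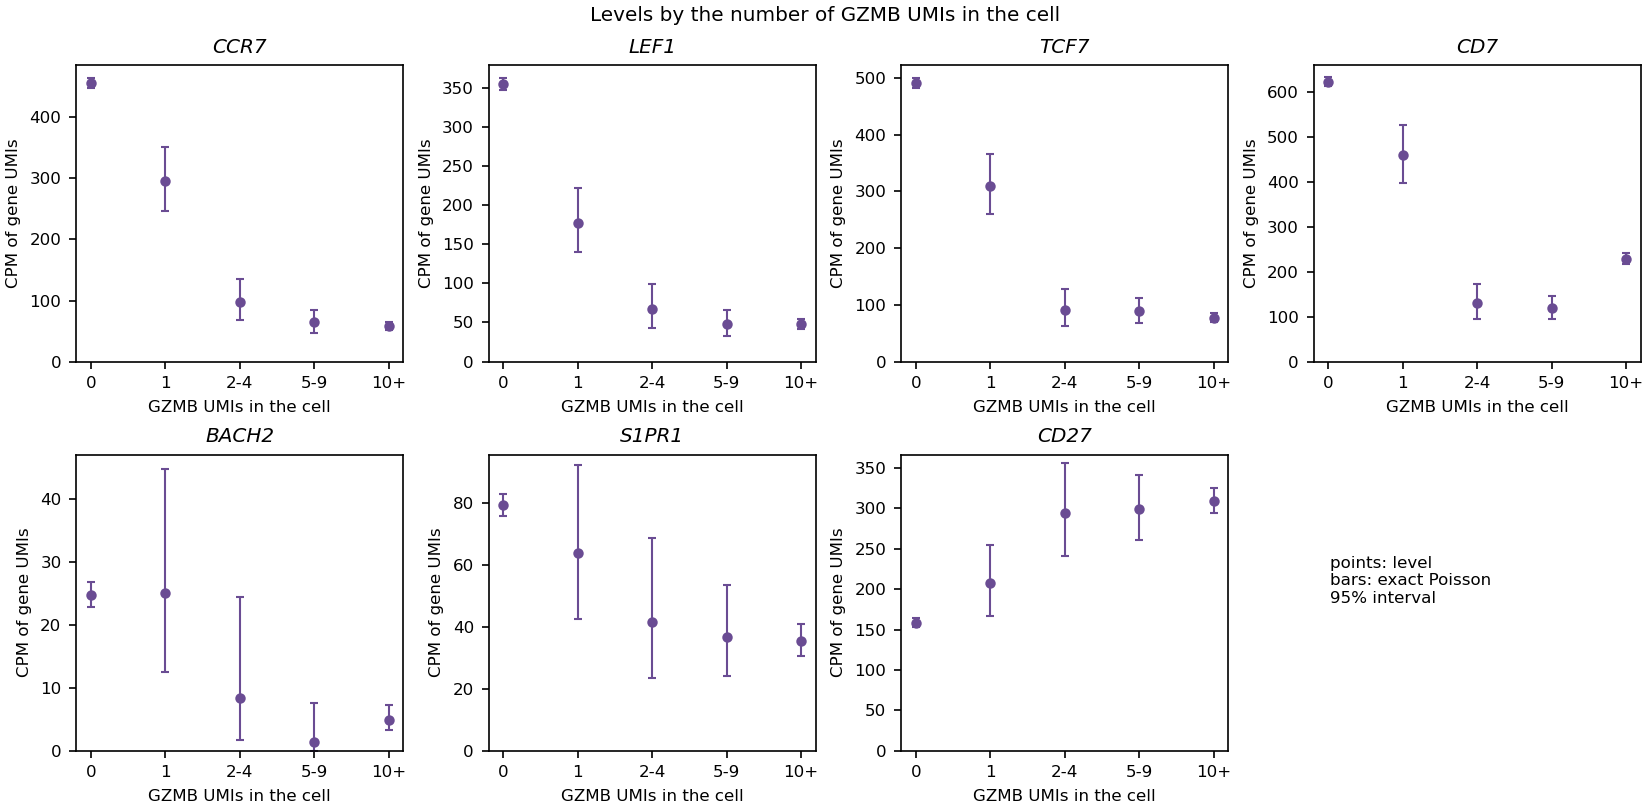
Level of each gene (CPM) by the number of *GZMB* UMIs in the cell, with exact Poisson 95% intervals. *CCR7*, *LEF1* and *TCF7* are low from the class of 2 to 4 UMIs on, *CD27* is at 295 CPM there, and *CD7* is higher again with 10 or more UMIs.

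Among *GZMB* cells, *CD7* was unevenly held. It was at 123, 202 and 517 CPM in gate order, but in CD4loCD8hi only 28.5% of 260 *GZMB* cells held a *CD7* UMI. A split by *FCER1G*, which encodes the Fc receptor gamma chain of NK and myeloid cells, was chosen after these values were seen. The 35 *GZMB* cells of this gate with an *FCER1G* UMI held *CD7* at 2685 CPM (2431 to 2958), and the 225 without one at 117 CPM. In CD4hiCD8hi the values were 1581 CPM in 24 cells and 145 CPM in 822 cells. *CD27* did not follow this split, with log2 ratios of 0.09 (-0.32 to 0.49) and -0.27 (-0.77 to 0.20).

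The cells with *GZMB* and *FCER1G* also differed in T cell and NK cell genes. *CD3E*, a subunit of the T cell receptor complex, was at 138 CPM in those of the CD4loCD8hi gate, against 1791 CPM in the others, and *CD3D* at 105 against 1359.5 CPM. The T cell list (8 of 10 genes found) summed to 1879 against 5679.7 CPM, and its *CD247*, the zeta chain, went the other way at 929.8 against 301 CPM. The NK cell list without *FCER1G*, which made the split, summed to 3156 against 181 CPM, and of its genes *NCAM1* was at 0 UMIs in both. The monocyte list summed to 0 CPM in these CD4loCD8hi cells with *FCER1G*, but to 5269 CPM in those of the CD4hiCD8hi gate, against 15.9 CPM without *FCER1G*, and its part in their *CD7* level was not tested. Without all cells that held *FCER1G*, the *CD7* log2 ratio of CD4hiCD8lo over CD4loCD8hi was 0.10 in place of -0.35. These 2 gates held 12 and 36 such cells.

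*GZMK*, which encodes granzyme K, was found in cells with high *CCR7* where *GZMB* was absent. In all 573 *GZMK* cells *LEF1* (log2 -2.37, interval -2.61 to -2.14), *TCF7* (-1.47, interval -1.61 to -1.32) and *BACH2* (-2.11, interval -3.03 to -1.32) were 2-fold lower and *CCR7* (-0.98, interval -1.11 to -0.85) stood just inside. These 3 of 7 genes compare with 6.08% of all genes lower and 5.72% higher, which included 0 of 7. Within CD4hiCD8hi cells *TCF7* was at -0.70, which left 2 genes past 2-fold, and within CD4hiCD8lo cells *CD7* was at -2.37, which made 4. *CCR7* was at -0.67 within CD4hiCD8lo and -0.46 within CD4hiCD8hi cells, and *S1PR1* at -0.56 and -0.40. Within CD4loCD8hi cells *CCR7* was at -2.29 (-2.97 to -1.68) and *S1PR1* at -1.38 (-2.39 to -0.49), both past 2-fold. The 114 *GZMK* cells of this gate held 23 *CCR7* and 12 *S1PR1* UMIs. *CD7* was at 0.004 (-0.18 to 0.18) there. The NK cell list was at 431 CPM in *GZMK* cells and 57.6 CPM in others, with all 4 of its genes counted and 5 of 6 cycling genes 2-fold higher. Without cells with an *FCER1G* UMI the ratios were -2.45 for *LEF1*, -1.39 for *TCF7* and -1.68 for *CD7*, in place of -0.64 over all cells, and the part of cycling genes was not tested. Of the *GZMK* cells 376 also held *GZMB*, and these had *CCR7* at 77.5 CPM (65.1 to 91.6), close to the 75.1 CPM of cells with *GZMB* and no *GZMK*.

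The 197 cells with *GZMK* and no *GZMB* had *CCR7* at 474 CPM (427 to 525), which could not be told apart from the 489 CPM of cells with none of the 5 marker genes (log2 -0.05, interval -0.20 to 0.11). Their transcription factors did not match that level, with *LEF1* at 86.7 against 394 CPM (log2 -2.18, interval -2.55 to -1.84) and *TCF7* at 309 against 547 CPM (-0.82, interval -1.01 to -0.64). *BACH2* had 2 UMIs in these cells, *CD7* was at 269 CPM, and *CD27* stood at 220.1 against 161 CPM. *CCR7* thus parted from *LEF1* here, which it did not do in *GZMB* cells, where both were about as low. The effector regulator *EOMES* was at 291 CPM in these cells and 1.14 CPM in marker-free cells. A *GZMK* UMI was found in 2.72% of the cells without *GZMB* (median depth 3029 UMIs). It was also found in 2.65% (0.55 to 7.56%) of 113 control cells with B cell genes, which should lack it (4549 UMIs). This share alone could thus not be told apart from background. The level of *GZMK* was 53.2 CPM (50.4 to 56.1) in the first and 14.3 CPM (6.19 to 28.3) in the second. The control cells were not limited to cells without *GZMB*, and 3 of them held it. With at least 2 *GZMK* UMIs and no *GZMB*, 169 of the 197 cells were left, with *CCR7* at 481 CPM (429.7 to 538) and *LEF1* at 71.8 CPM (52.8 to 95.5). With only *GZMK* among the 5 marker genes, 72 CD4hiCD8lo cells had *CCR7* at 565 CPM (475 to 668) and 82 CD4hiCD8hi cells at 362 CPM.

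**Figure D4:**
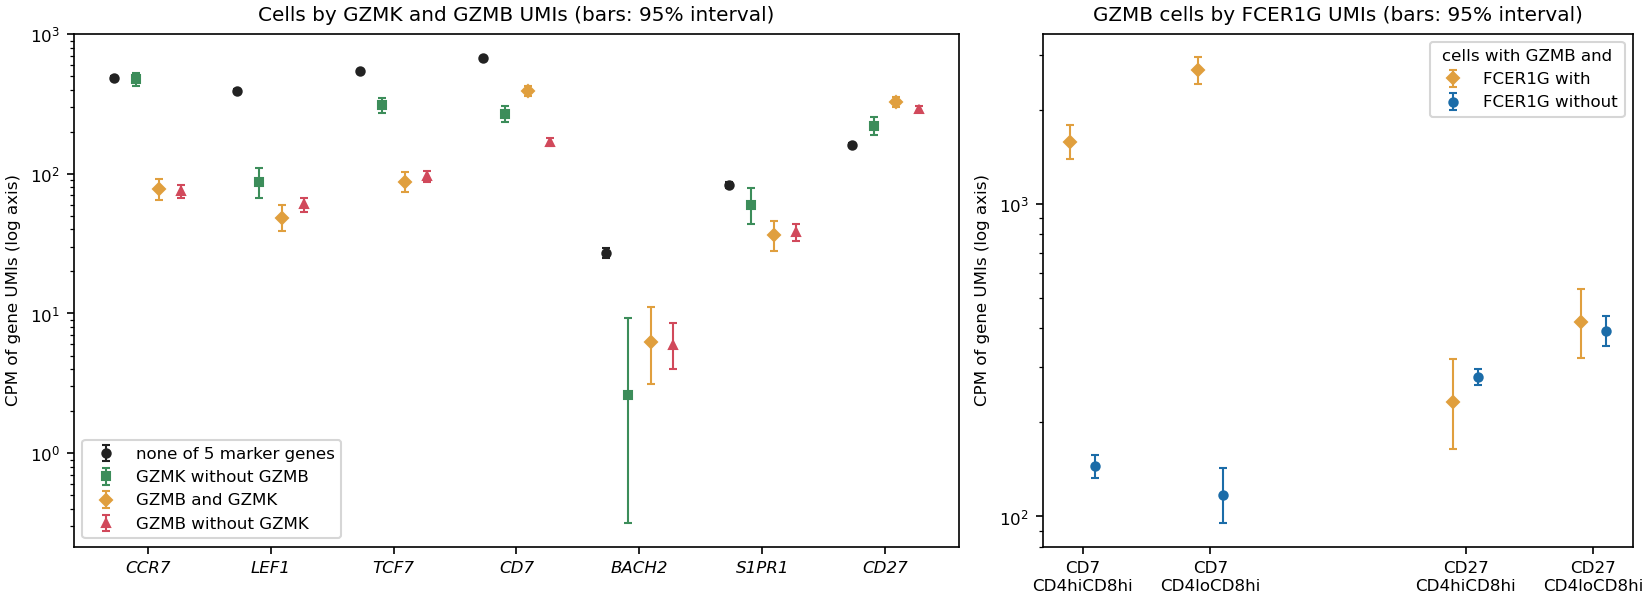
Left, level of each gene (CPM, log axis) in cells with none of the 5 marker genes, with *GZMK* and no *GZMB*, with both and with *GZMB* and no *GZMK*. Right, *CD7* and *CD27* in *GZMB* cells by *FCER1G* UMIs in 2 gates, all with exact Poisson 95% intervals. *CCR7* of *GZMK* cells without *GZMB* lies at 474 CPM beside the 489 CPM of marker-free cells while *LEF1* lies at 86.7 CPM, and *CD7* is split by *FCER1G* while *CD27* is not.

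Cells with *FOXP3*, the lineage factor of regulatory T cells, were lower in *TCF7*. The 384 cells had *TCF7* at 259 CPM (235 to 286) against 414 CPM without *FOXP3*, a log2 ratio of -0.68 (-0.82 to -0.53), and with at least 2 *FOXP3* UMIs it was -0.98. *LEF1* stood at 299 and 291 CPM and *CCR7* at 393 and 373 CPM, with both intervals of the ratio including 0. Within gates *CCR7* was lower with *FOXP3* in CD4hiCD8lo cells at -0.16 (-0.30 to -0.02) and higher in CD4hiCD8hi cells at 0.35 (0.12 to 0.58), and *LEF1* stood at -0.17 (-0.33 to -0.02) and 0.24 (-0.05 to 0.51). *CD7* was at -0.08 (-0.20 to 0.03) and 0.46 (0.29 to 0.64) in the same gates. Against cells with none of the 5 marker genes *TCF7* was at -1.08 (-1.22 to -0.93), past 2-fold, and *CCR7* and *LEF1* were lower too, *CCR7* at -0.31 (-0.43 to -0.20) and *LEF1* at -0.40 (-0.53 to -0.26). *S1PR1* was lower at -0.57 (-0.90 to -0.27) against these cells and at -0.34 (-0.66 to -0.03) against all cells without *FOXP3*. The latter ratio was -0.51 (-0.90 to -0.15) within CD4hiCD8lo and -0.06 (-0.69 to 0.50) within CD4hiCD8hi cells. *TCF7* and *LEF1*, from 1 family, thus gave different values in *FOXP3* cells. The intervals of their ratios to all cells without *FOXP3*, -0.82 to -0.53 and -0.09 to 0.18, do not overlap. Against all cells without *FOXP3* no gene passed 2-fold, beside 7.43% of all genes lower and 1.83% higher in *FOXP3* cells. In *FOXP3* cells the B cell list was at 67.6 against 222 CPM, with 8 of 10 genes 2-fold lower. Of the effector list 15 of 16 genes, of the NK cell list 2 of 4 and of the cycling list 2 of 6 were lower. In these 4 lists 0 genes were 2-fold higher, and of 6 monocyte genes 2 were lower and 1 higher. Within CD4hiCD8lo cells the *TCF7* ratio was -0.95 (-1.12 to -0.78), and within CD4hiCD8hi cells -0.30 (-0.58 to -0.04).

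Cells with *CCR6*, a chemokine receptor of Th17 cells, were low in *CD27* as well as in the naive genes. In 263 *CCR6* cells *CD27* was at 89.8 CPM (75.2 to 106), against 194 CPM without *CCR6* (log2 -1.11, interval -1.37 to -0.86). *CCR7* (-1.21), *LEF1* (-1.31), *TCF7* (-1.09) and *BACH2* (-1.17) passed 2-fold too, while *S1PR1* (-0.25, interval -0.58 to 0.05) could not be told apart. These 5 of 7 genes lower and 0 higher compare with 5.94% and 5.11% of all genes. After thinning, 61.5% of *CCR6* cells held neither *CCR7* nor *CD27*, against 44.2% of *GZMB* cells. Within gates the *CD27* ratio was -0.63 (-1.09 to -0.21) in CD4hiCD8lo and -1.35 (-1.69 to -1.03) in CD4hiCD8hi cells, and *CD7* was -1.34 and -0.11. Within CD4hiCD8hi, which held 177 of the *CCR6* cells, *CD27* was the only 1 of the 7 genes past 2-fold, and *CCR7* was at -0.79, *LEF1* at -0.75, *TCF7* at -0.58 and *BACH2* at -0.21 (-1.19 to 0.64). The B cell list was at 293 CPM in *CCR6* cells against 210.2 CPM in others, and at 408 against 156 CPM within CD4hiCD8lo, with 4 of its 10 genes (*BANK1*, *BLK*, *CD22* and *VPREB3*) 2-fold higher and 1 (*PAX5*) lower. All 6 monocyte genes counted were 2-fold lower. Without cells with B or monocyte genes the *CD27* ratio was -1.11 and the *CCR7* ratio -1.22. *CCR6* cells were deeper than others, with a median of 4912 against 3116 UMIs. Of 15 other homing and egress genes, *CCR4*, *CCR9*, *CXCR3*, *GPR183* and *ITGB1* were 2-fold higher in them and *CX3CR1* was 2-fold lower.

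**Figure D5:**
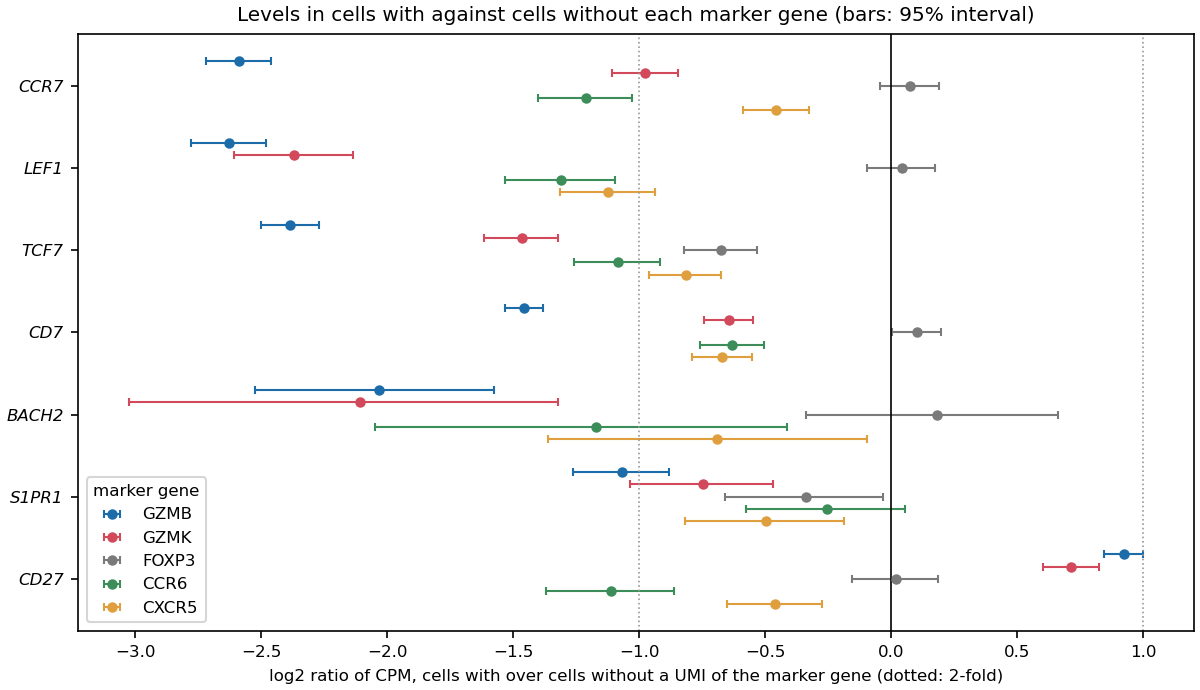
Log2 ratio of CPM in cells with over cells without a UMI of *GZMB*, *GZMK*, *FOXP3*, *CCR6* or *CXCR5* for each gene, with 95% intervals from the exact binomial split and dotted lines at 2-fold. *GZMB* has the lowest *CCR7* ratio at -2.59, the pooled *FOXP3* ratios of *CCR7* and *LEF1* have intervals that include 0, and *CD27* is on the right for *GZMB* and *GZMK* and at -1.11 for *CCR6*.

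Cells with *CXCR5*, the chemokine receptor of B cells and follicular helper T cells, included cells with B cell genes. Over all 327 *CXCR5* cells *LEF1* (-1.12, interval -1.31 to -0.94) alone of the 7 genes was 2-fold lower and 0 were higher, beside 5.02% and 5.62% of all genes. The B cell list summed to 2189 CPM in these cells against 98.1 CPM in others, and all 10 of its genes were 2-fold higher. Of 9 immediate early genes, 4 (*EGR1*, *IER2*, *NR4A1* and *ZFP36*) were 2-fold higher and 0 lower, with the list at 11838 against 6229 CPM. *CXCR5* cells were also deeper, with a median of 4667 against 3117 UMIs. Among cells with under 3 UMIs of B cell and of monocyte genes, 216 *CXCR5* cells were left, with *CCR7* at 404 CPM (366 to 444) and *LEF1* at 206 CPM (179.6 to 235). The log2 ratios to the other cells of this kind were then 0.07 for *CCR7*, -0.03 for *CD27*, -0.23 for *TCF7* and -0.56 for *LEF1*, so that *LEF1* stayed lower while *CCR7* did not. Within CD4hiCD8hi cells, *CCR7* was higher with *CXCR5*, at 352 against 261 CPM (log2 0.43, interval 0.25 to 0.62), and within CD4hiCD8lo cells it was lower, at 308 against 471 CPM (log2 -0.61, interval -0.82 to -0.42). The B cell list was at 665 CPM in the first and 1909 CPM in the second of these groups of *CXCR5* cells. With and without *CXCR5*, the immediate early list was at 9247 and 6431 CPM within CD4hiCD8hi and at 10977 and 6164 CPM within CD4hiCD8lo. The part of either list in the difference was not tested.

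Some other naive genes were lower in *GZMB* cells as well. Of 17 counted, 8 were 2-fold lower in *GZMB* cells, 3 (*ACTN1*, *PECAM1* and *SATB1*) in *GZMK* cells, 2 (*ACTN1* and *KLF3*) in *CCR6* cells, 1 (*SATB1*) in *CXCR5* cells and 1 (*IL7R*, the interleukin 7 receptor) in *FOXP3* cells. Of all genes, 8.15%, 6.08%, 5.94%, 5.02% and 7.43% were 2-fold lower in the same order, so that the counts for *CXCR5* and *FOXP3* are near the share of all genes. *SATB1*, which encodes a chromatin organizer of T cells, had log2 ratios of -2.02 for *GZMB*, -1.60 for *GZMK* and -1.59 for *CXCR5*. *TXK*, a kinase of T cells, was the only 1 of the 17 that was 2-fold higher, in *FOXP3* cells.

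Cell by cell, *LEF1*, *TCF7* and *CD7* were found more often in cells with *CCR7* than in cells without it. After thinning, *LEF1* was found in 55.7% of cells with and 31.7% of cells without *CCR7*, *TCF7* in 66.2% and 38.8%, and *CD7* in 73.7% and 45.5%. *CD27* was found in 31.7% of cells with and 35.3% of cells without *CCR7*. As background, 113 control cells with B cell genes and almost no T cell receptor genes, with a median of 4549 UMIs, had *TCF7* in 0 of 112 cells after thinning, which allows a share of up to 2.68% (3 of 112 cells), *LEF1* in 0.893% and *CD7* in 1.79%, against 53.0%, 44.1% and 60.2% of all cells with a median of 3145 UMIs. Unthinned, the shares of all cells were 62.8%, 54.7% and 69.0%, and those of the control cells 2.65% for *LEF1* and 2.65% for *CD7*. Of the marker genes, the control cells held *GZMB* in 1.79% and *GZMK* in 1.79% after thinning, against 18.1% and 5.77% of all cells, and *FOXP3* in 0 of 112. B cells can express *CCR6*, *CXCR5*, *CCR7*, *BACH2*, *S1PR1* and *CD27* themselves, so they gave no background for these.

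Over 16 separate groups of cells (1 or none of the marker genes, by gate) the levels of *LEF1* and *TCF7* had a Pearson correlation of 0.89 on log2(CPM + 5), *CCR7* and *TCF7* of 0.88, and *CCR7* and *CD27* of 0.11. 2 of these groups came from the CD4loCD8lo gate, 1 of them 51 *CXCR5* cells with *TCF7* and *CD7* at 0 UMIs. The other held 42 marker-free cells, with the erythroid list at 30508 CPM. Over the 14 groups without these 2 the values were 0.85, 0.94 and -0.35, so that the sign for *CCR7* and *CD27* turned on that gate. The groups come from the same animal and library and differ in size and depth, so these values describe them only.

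Among 4932 genes with at least 500 UMIs, the gene most like *CCR7* over the 16 groups was *ITGA6* (r = 0.94, and 0.92 over 14), for *LEF1* it was *HDAC7* (0.96 and 0.96) and for *BACH2* *MAML2* (0.86 and 0.89), and each of these 3 was second nearest over 14 groups. For *CD27* it was *OTULINL* (0.93 and 0.87). For *TCF7* it was *SPOCK2* (0.94 and 0.87), which was at rank 21 over 14 groups. For *CD7* it was *CAMK4* (0.93 and 0.67), at rank 152 over 14 groups, so the likeness of *CAMK4* to *CD7* depended on the CD4loCD8lo gate. For *S1PR1* the 3 nearest were ribosomal protein genes, *RPS12*, *RPS14* and *RPS21*, with r from 0.89 to 0.91 over 16 and from 0.86 to 0.88 over 14 groups.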

How the data were processed

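Libraries were made with the 10x 5′ chemistry, and the authors deposited a matrix of UMI counts for genes and tags, not normalized. The submitters' processing notes name Cell Ranger 3.1.0, STAR 2.5.1b and Seurat 3.1.3. No coordinates are given. Limits of 200 to 4000 genes a cell and a mitochondrial share of up to 20% removed 123 of 8953 barcodes and left 8830 cells with 31677119 UMIs. Group sums of UMIs were scaled to CPM, with exact Poisson intervals for levels, exact binomial splits for ratios and Clopper-Pearson intervals for shares. A gene was counted from 2-fold upwards if the compared groups held 50 UMIs of it, with 3 UMIs in place of a sum of 0. Shares were taken after thinning cells to 2200 UMIs, which left out 754 shallower cells, unless given as unthinned. The shares of cells with *GZMB* over tag bins and with *CD7* within gates were not thinned. Nor were those with *GZMK* in cells without *GZMB* and in the control cells beside them. B control cells held 5 or more UMIs of B cell genes and no more than 1 UMI over 4 T cell receptor genes (*CD3D*, *CD3E*, *CD3G* and *TRAC*). Scrublet in scanpy 1.11.5 called 0 doublets, so the 441 cells with the highest scores were left out only as an alternative. Python 3.11.15, numpy 2.4.6, scipy 1.17.1 and pandas 2.3.3 were used. The ratio and its interval were tested on simulated Poisson counts without spread between cells, and the other steps were not simulated.

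The genes named are the members, the 5 marker genes, genes of the lists and the 3 genes most like each member by Pearson correlation, with *FCER1G* splits, *CD4* and *CD8A* added. 1 gene of the naive list is not reported here. Members and lists were chosen with earlier results of these data known. Other cell filters, tag thresholds, scalings and sets of cells were tried.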

Additional observations from a re-analysis of the deposited data

How the results depend on the processing

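No paired analysis was possible because there was 1 animal and no test. Of 784 ratios recomputed under other settings, 602 stayed within the counting interval of the reported value, 171 lay outside it and 11, whose reported interval did not include 0, changed sign. The count of genes 2-fold apart between CD4hiCD8lo and CD4hiCD8hi cells, 1 as reported, became 0 with all barcodes, with a mean over cells, with tag thresholds divided by 1.5 and among cells with none of the 5 marker genes, 2 with CPM without ribosomal and mitochondrial genes and 3 without cells near a threshold. Between CD4hiCD8lo and CD4loCD8hi cells it went from 4 to 0 among cells with none of the 5 marker genes, and between CD4hiCD8hi and CD4loCD8hi cells from 0 to 1 with divided thresholds. For *GZMK* it was between 2 and 4, against 3 as reported. For *CCR6* it went from 5 to 1 within CD4hiCD8hi cells. For *CXCR5* it went from 1 to 0 within CD4hiCD8hi cells, without cells with B or monocyte genes and without B control cells and the CD4loCD8lo gate, 3 with at least 2 *CXCR5* UMIs and 2 without cells with several marker genes. The *GZMB* count was 6 in each setting run for the *GZMB* comparison, but within CD4hiCD8hi cells *CD27* (1.01) passed 2-fold and *S1PR1* (-0.82) did not.

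Signs changed among marker-free cells for *CD27* in CD4hiCD8lo over CD4loCD8hi (0.085) and for *CCR7* (-0.100) and *TCF7* (-0.032) in CD4hiCD8hi over CD4loCD8hi, and for *CD7* without *FCER1G* cells (0.10). They also changed for *CCR7* in *GZMK* cells without cells with several marker genes (0.17), for *CD7* in *FOXP3* cells of the CD4hiCD8lo gate (-0.084) and for *CCR7* in *CXCR5* cells without B or monocyte genes (0.069). Within CD4hiCD8hi cells they changed in *CXCR5* cells for *CCR7* (0.43), *TCF7* (0.044), *CD7* (0.12) and *S1PR1* (0.15). The cause was not tested. The settings on *FCER1G*, CD4hiCD8hi cells, marker-free cells and B control cells were chosen after seeing the data, as was leaving CD4loCD8lo groups out of the correlations. *BACH2*, with 656 UMIs in all, is limited most by depth.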

Other observations

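Among CD8hi cells in 10 bins by CD4 tag, *CD27* was at 303 CPM in the lowest bin and 164 CPM in the highest, and *CCR7* at 187 and 318 CPM, with 63.0% and 20.6% of cells holding a *GZMB* UMI. *CD7* was lowest in the third bin, at 315 CPM, between 784 CPM in the first and 462 CPM in the tenth. By the number of *GZMK* UMIs, *CCR7* was at 123 CPM with 1, 197 with 2 to 4 and 236 with 5 or more, while *LEF1* was at 88.4, 57.6 and 48.0 CPM. These classes mix cells with and without *GZMB*. Of the 197 *GZMK* cells without *GZMB*, 169 held 2 or more *GZMK* UMIs, while the class with 1 UMI held 131 cells in all. The part of *GZMB* in these levels was not tested.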
